A study of Mus musculus with 7 samples.

Results

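The kynurenine pathway genes described here are Kyat1, Kyat3, Tdo2, Ido2, Kmo, Kynu, Haao, Afmid, Aadat and Acmsd, taken by gene symbol from the array's platform annotation. A probe set, the group of short probes that reports a transcript on an Affymetrix array, was included where its annotation named exactly 1 of these genes. This gave 18 probe sets for 9 of the 10 genes, out of 45037 probe sets and 18193 named genes in all; Acmsd had no such probe set and was not analysed here. The genes were gathered around Kyat3 because of its low values in knockout livers, so the knockout against wild-type values of these genes are a description and support no further statement. The arrays measured total RNA of frozen livers from 4 mir-122 knockout mice (KO-03, KO-90 and KO-91, with KO-94) and 3 wild-type mice (WT-27, WT-103 and WT-104), each animal on its own array, and values are listed in this order. All were B6/129 mice 2 months of age. miR-122 is the main microRNA of hepatocytes. The labels do not say how it was deleted or in which cells, and no probe set here carries its symbol, so these values do not check the genotypes.

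The kynurenine pathway is the main route of tryptophan breakdown, and the liver carries most of it. Dioxygenases open the tryptophan ring, a formamidase releases kynurenine, and kynurenine then either is turned into kynurenic acid by aminotransferases or passes through hydroxylation and cleavage toward quinolinic acid, a precursor of NAD. Kynurenine and kynurenic acid are also known as ligands of the aryl hydrocarbon receptor, and the aminotransferases use pyridoxal phosphate, the active form of vitamin B6.

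Values are log2 expression values, on which a difference of 1 is a 2-fold change, and differences are knockout minus wild type with the standard error (SE) of the fit across all probe sets. A probe set is called changed where its adjusted p is under 0.05 over all 45037 probe sets in limma. No level is compared between genes, because probe sets differ in how well they bind.

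Among the aminotransferases, which make kynurenic acid, Kyat3 fell most. Kyat3 also acts on glutamine and on cysteine conjugates. Its only probe set, 1455991_at, had 8.27, 9.16, 8.59 and 8.51 in the knockout livers, against 11.11, 11.16 and 11.68 in the wild-type livers. Every knockout liver lay below every wild-type liver, with a gap of 1.96 between the highest knockout and the lowest wild-type value. The means were 8.63 ± 0.38 in knockout (SD, n = 4) and 11.32 ± 0.31 in wild type (SD, n = 3), a difference of -2.68 ± 0.22 (SE), or 6.43-fold lower. Ordered by difference, Kyat3 ranked 7 from the most negative of all 45037 probe sets. The fall was called in all 7 fits that left out 1 array. In whole liver, fewer cells of a type and less RNA per cell cannot be told apart.

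Aadat, the aminotransferase known as KAT II that also acts on the lysine product aminoadipate, fell as well. Its probe set 1418519_at had 9.87, 9.28, 9.95 and 9.41 in the knockout livers, against 10.68, 10.70 and 11.21 in the wild-type livers. The groups did not overlap. The means were 9.63 ± 0.33 in knockout (SD, n = 4) and 10.86 ± 0.30 in wild type (SD, n = 3), a difference of -1.23 ± 0.20 (SE), or 2.35-fold lower. The difference kept its direction without any single array, but the call was lost without KO-90 (-1.12), KO-94 (-1.16), WT-27 (-1.32), WT-103 (-1.32) or WT-104 (-1.06).

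Kyat1, the paralog of Kyat3 also known as glutamine transaminase K, was not called on any of its 4 probe sets. Its brightest, 1428151_x_at, had 8.53, 8.63, 8.19 and 7.85 in the knockout livers, against 8.43, 8.58 and 8.67 in the wild-type livers. KO-91 and KO-94 lay below the wild-type range and KO-03 and KO-90 within it. The difference was -0.26 ± 0.19 (SE), from 8.30 ± 0.35 in knockout (SD, n = 4) and 8.56 ± 0.12 in wild type (SD, n = 3). The probe sets 1452678_a_at and 1438348_x_at differed by -0.34 ± 0.24 and -0.37 ± 0.18 (SE), and KO-91 and KO-94 lay below the wild-type range on these too. The remaining probe set, 1446302_at, lay at or under the level of the bacterial control probe sets on all 7 arrays. The suffix _x_at marks probes that may also bind other transcripts.

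The RefSeq promoters of the called genes Kyat3 and Aadat, and of Tdo2, the hepatic entry enzyme, are given for orientation, because Kyat3 and Aadat were lower while Tdo2 overlapped between genotypes. Each runs from 250 bases before to 50 bases after the annotated start, on build GRCm38.p6 and 5′ to 3′ on the gene's strand: Kyat3 at chr3:142700798-142701097 (+), Aadat at chr8:60505874-60506173 (+) and Tdo2 at chr3:81975679-81975978 (-). Capitals mark 3 promoter motifs, searched on both strands: the CCAAT box, the TATA box spelled TATAAA, and the GC box spelled GGGCGG.
Kyat3: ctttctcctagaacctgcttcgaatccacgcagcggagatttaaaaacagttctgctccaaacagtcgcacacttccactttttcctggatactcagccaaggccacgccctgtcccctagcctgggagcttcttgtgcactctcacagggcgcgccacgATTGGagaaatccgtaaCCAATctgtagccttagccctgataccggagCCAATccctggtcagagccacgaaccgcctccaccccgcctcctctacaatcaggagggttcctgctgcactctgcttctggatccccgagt
Aadat: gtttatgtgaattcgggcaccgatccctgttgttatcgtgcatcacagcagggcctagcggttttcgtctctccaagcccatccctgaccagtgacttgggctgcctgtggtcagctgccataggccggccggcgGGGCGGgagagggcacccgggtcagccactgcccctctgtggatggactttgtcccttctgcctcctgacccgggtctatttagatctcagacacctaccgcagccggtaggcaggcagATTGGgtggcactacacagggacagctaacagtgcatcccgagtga
Tdo2: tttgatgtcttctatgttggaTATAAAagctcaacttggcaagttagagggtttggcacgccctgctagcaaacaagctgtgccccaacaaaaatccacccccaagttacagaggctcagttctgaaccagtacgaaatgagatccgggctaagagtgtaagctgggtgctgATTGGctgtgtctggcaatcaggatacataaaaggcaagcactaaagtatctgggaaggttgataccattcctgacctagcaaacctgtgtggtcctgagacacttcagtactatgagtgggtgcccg
The Kyat3 promoter held 3 CCAAT boxes, at -90 to -86, -73 to -69 and -42 to -38 from the start, and neither of the other motifs. At least 3 such boxes were found in 3.37% of 32851 promoters, and at least 1 in 37.4%. The Aadat promoter held 1 GC box, found in 35.7% of promoters, at -115 to -110. Its 1 CCAAT box lay after the start, at 4 to 8. The Tdo2 promoter held 1 TATA box, found in 13.6%, as far upstream as -229 to -224, and 1 CCAAT box at -78 to -74. None of these motifs overlapped another in these promoters. A match shows only that the letters are there. Promoter entries matched 8 of the 10 genes, all but Ido2 and Kynu.

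Of the entry enzymes, Tdo2 was close between genotypes and Ido2 was lower without being called. Tdo2 is the tryptophan dioxygenase of hepatocytes. Its brightest probe set, 1419093_at, had 13.71, 13.45, 13.56 and 13.18 in the knockout livers, against 13.49, 13.18 and 13.45 in the wild-type livers, a difference of 0.10 ± 0.15 (SE). The groups overlapped. The other probe sets, 1449337_at and 1455770_at, differed by -0.19 ± 0.29 and -0.27 ± 0.31 (SE). On these KO-94 stood lowest, at 10.48 and 10.28, against 11.46 to 11.67 and 11.37 to 11.52 in the wild-type livers, while KO-03 stood highest, at 11.87 and 11.75. Without KO-94 the differences of these probe sets became 0.11 and 0.03, so their sign rested on that array. The 95% interval of the 1419093_at difference ran from -0.24 to 0.44.

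Ido2, a dioxygenase related to Ido1 and expressed in liver, had 5.48, 6.38, 6.12 and 5.91 in the knockout livers, against 6.87, 6.72 and 7.29 in the wild-type livers, on its only probe set, 1425778_at. The groups did not overlap. The means were 5.98 ± 0.38 in knockout (SD, n = 4) and 6.96 ± 0.30 in wild type (SD, n = 3), a difference of -0.98 ± 0.22 (SE) that was not called. It was called with the adjustment over 18193 genes in place of probe sets, with array weights and after renewed quantile normalization. A call was also made among the 15297 probe sets with a mean of at least 6 in a genotype. Ido2 passed that filter only through its wild-type mean, so this call adds no support.

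Afmid, the formamidase that releases kynurenine, varied widely among knockout livers. Its brightest probe set, 1452944_at, had 8.50, 9.74, 9.32 and 8.22 in the knockout livers, against 9.46, 9.51 and 9.84 in the wild-type livers. KO-90 lay within the wild-type range, KO-91 just below it, and KO-03 and KO-94 well below it. The difference was -0.66 ± 0.34 (SE), with an SD of 0.71 in knockout (n = 4) and 0.21 in wild type (n = 3), and was not called. The probe sets 1428885_at and 1431722_a_at differed by -0.80 ± 0.32 and -0.56 ± 0.18 (SE), also without a call. The remaining probe set, 1447638_at, lay at or under the control level on all 7 arrays.

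In the branch toward quinolinic acid, Kmo, Kynu and Haao had lower means in knockout and none was called. Kmo, the hydroxylase of kynurenine in the outer mitochondrial membrane, had 10.51, 9.68, 10.38 and 9.78 in the knockout livers, against 10.95, 10.50 and 10.71 in the wild-type livers. Only KO-03 reached the wild-type range. The difference of Kmo was -0.63 ± 0.22 (SE).

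Kynu, the kynureninase that cleaves hydroxykynurenine and that also uses pyridoxal phosphate, had 9.64, 10.14, 9.92 and 10.14 in the knockout livers, against 10.33, 10.56 and 10.25 in the wild-type livers, on probe set 1430570_at. The groups did not overlap, and the difference was -0.42 ± 0.15 (SE). Its probe set 1451903_at was at or under the control level on all but WT-104.

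Haao, the dioxygenase that makes the precursor of quinolinic acid, had 11.27, 11.55, 11.53 and 11.49 in the knockout livers, against 11.62, 11.64 and 11.59 in the wild-type livers. The groups did not overlap, but the difference was small, -0.16 ± 0.11 (SE), or 1.11-fold, with a gap of 0.04 between the groups.

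**Figure D1:**
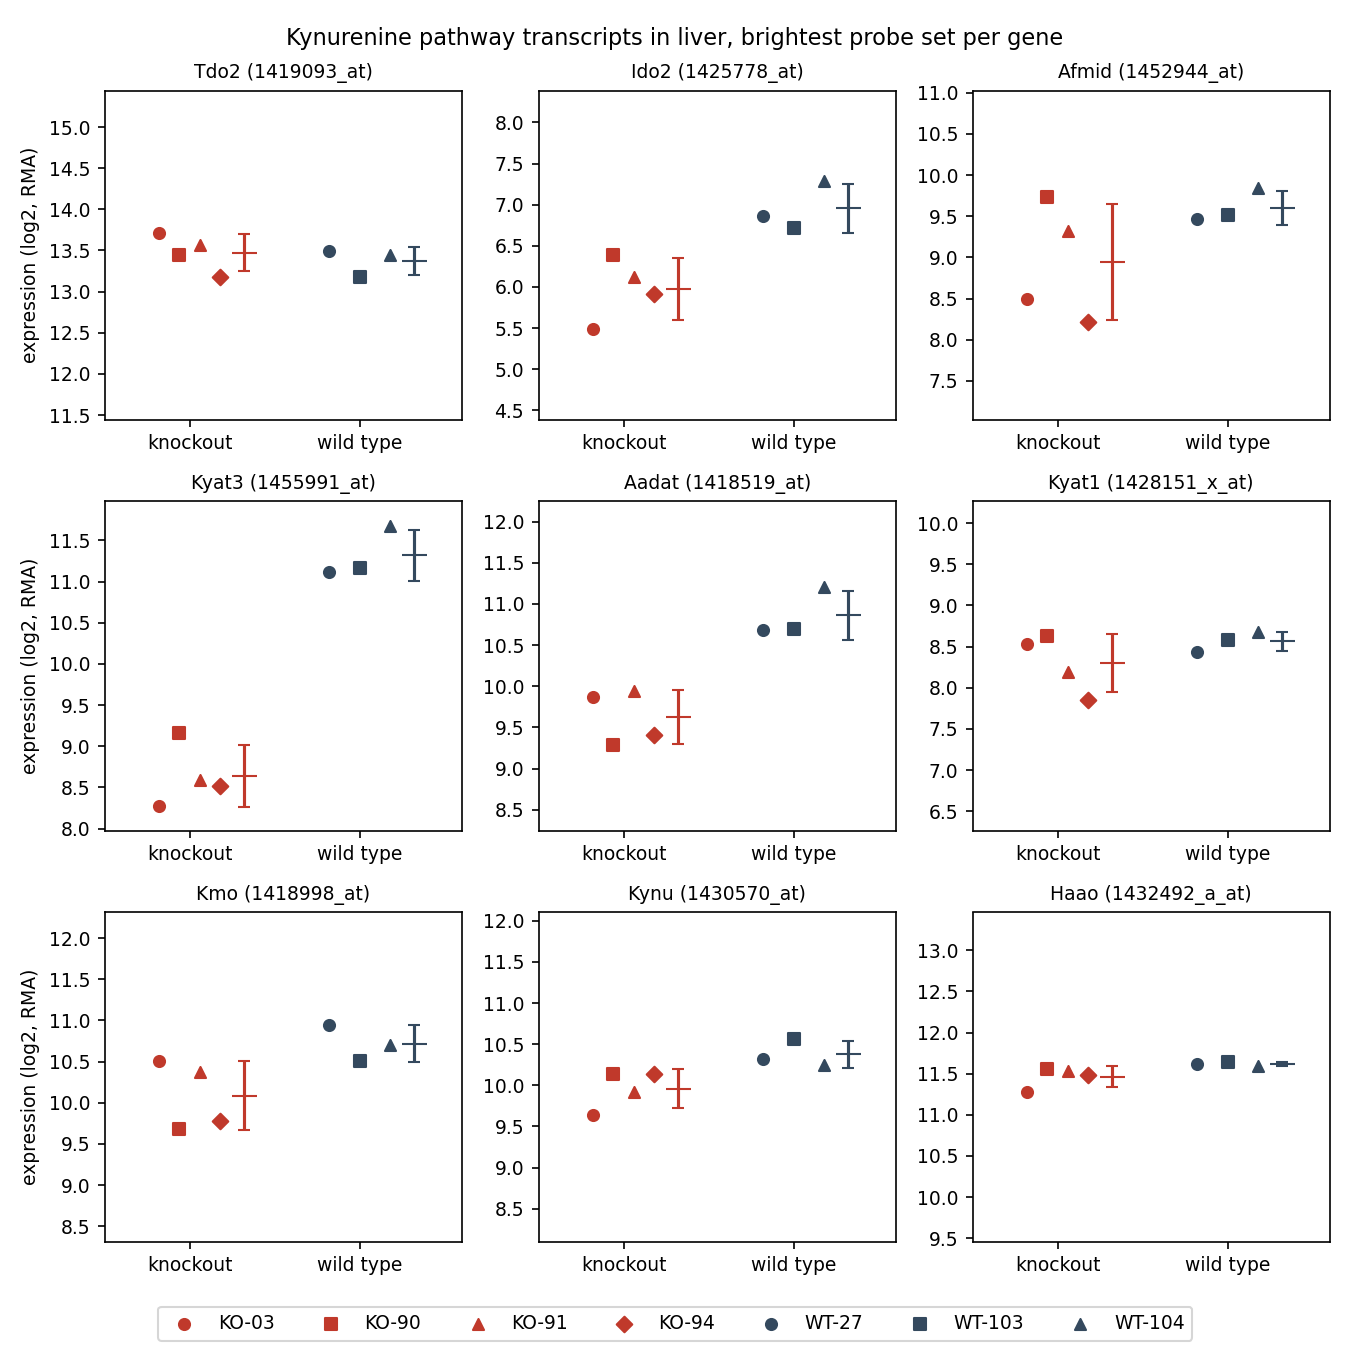
Log2 expression (y axis, each panel spanning 4 log2 units) of the brightest probe set of each gene in 4 knockout livers (left) and 3 wild-type livers (right), with mean ± SD beside the points. The knockout livers of Kyat3 lie between 8.27 and 9.16, all below the wild-type livers at 11.11 to 11.68, while those of Tdo2 overlap.

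Across all 18 probe sets, 2 were called lower in knockout, those of Kyat3 and Aadat, and 0 were called higher. Of all 45037 probe sets, 0.32% were called lower and 1.29% higher, 1.61% in all. The difference was negative for 17 of the 18 probe sets, with a median of -0.40, against 51% of all probe sets, with a median of 0.00. By the brightest probe set of each gene, 8 of 9 differences were negative, with a median of -0.63, against a median of 0.01 over all 18193 genes. Every knockout liver lay below every wild-type liver on 7 of the 18 probe sets, and this held for 5.53% of all probe sets. Those 7 include 1 at the control level. Every knockout liver lay above every wild-type liver on 0 of the 18, against 7.25% of all probe sets. The genes were chosen with these values known, so the shares are set side by side and nothing is read from them.

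**Figure D2:**
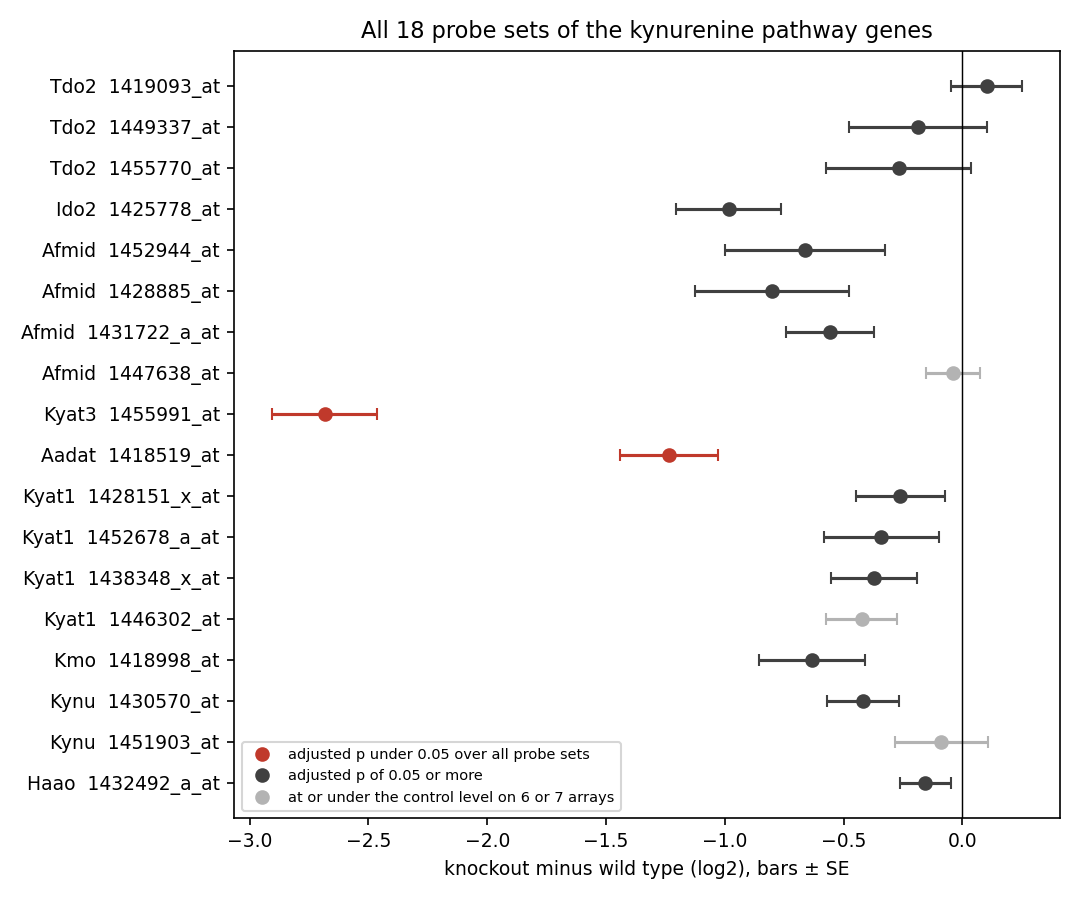
Knockout minus wild-type difference (x axis, log2, bars ± SE) of the 18 probe sets, from the entry enzymes at the top to Haao at the bottom. Kyat3 at -2.68 and Aadat at -1.23 are the called probe sets, and the 3 grey ones lay at or under the control level on 6 or 7 arrays.

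The choice of genes used no comparison within a genotype. There the pathway genes did not vary as a block. After each genotype's mean was removed, Kyat3 and Ido2 deviated together over the 7 arrays, with Pearson r of 0.93. KO-03 was low for both (-0.36 and -0.49), KO-90 high for both (0.53 and 0.41), and WT-104 the highest wild-type liver for both (0.36 and 0.33). Of 14591 other probe sets with a mean of at least 6, 199 followed Kyat3 as closely as Ido2 did, Ido2 among them, which is 1.36%. Kyat3 and Afmid (1452944_at) gave r of 0.79, a value reached by 9.35% of those probe sets.

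Aadat did not follow Kyat3, with r of -0.13 over the 7 arrays. Aadat varied with Kmo instead, with r of 0.70: KO-03 and KO-91 were high for both, and KO-90 and KO-94 low for both. The wild-type livers did not follow this, with deviations of 0.23, -0.22 and -0.01 for Kmo and -0.18, -0.17 and 0.34 for Aadat. Of the other probe sets, 2.64% followed Aadat as closely as Kmo did. Kynu (1430570_at) varied in the opposite way to both, with r of -0.88 with Kmo and -0.77 with Aadat. Of the other probe sets, 97.5% had an r with Kmo at least as high as that of Kynu. Other pairs gave values as large. Tdo2 (1419093_at) with Kmo gave r of 0.82, a value reached by 5.43% of other probe sets. Kynu with Haao gave 0.82, and Tdo2 with Kynu gave -0.88. These correlations are descriptions over 7 arrays that share RNA handling and normalization, with 2 genotype means removed. The pairs were picked from all pairs of pathway genes, and Kyat3 with Ido2 had the largest r among brightest probe sets. The shares therefore do not measure how rare such an r is.

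**Figure D3:**
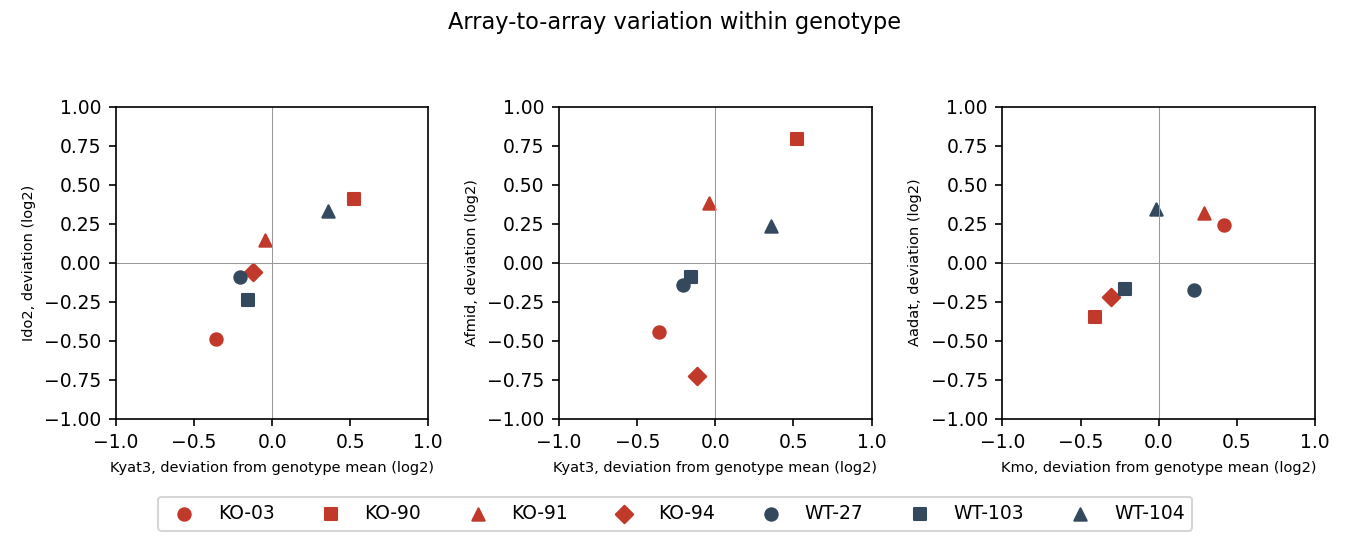
Deviation of each liver from its genotype mean (log2, both axes) for Kyat3 and Ido2, Kyat3 and Afmid, and Kmo and Aadat, with knockout livers in red and wild-type livers in dark blue. Kyat3 and Ido2 lie along a line (r of 0.93), and Kmo and Aadat scatter more (r of 0.70).

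The spread among knockout livers was larger than among wild-type livers for all 9 genes on their brightest probe sets, and for 16 of the 18 probe sets. The knockout SD was the larger for 60.9% of all probe sets. KO-94 contributed to the spread of several genes. It stood below the wild-type mean by 1.03 for Kyat1 (1452678_a_at), by 1.15 for Tdo2 (1455770_at) and by 1.39 for Afmid (1452944_at). On the brightest probe sets of Kyat1 (1428151_x_at) and Tdo2 (1419093_at), KO-94 stood below the wild-type mean by only 0.71 and 0.19. It was neither the lowest nor the highest knockout liver for Kyat3, Aadat or Ido2.

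Among genes around the pathway, 3 were called, and these were higher in knockout. The 5 lists were chosen from textbook knowledge with earlier results of these data known, and each gene counts by its brightest probe set. Genes at or under the control level were kept in the counts and medians. Of 58 measured genes, 3 were called higher and 0 lower, where 1.87% of all 18193 genes were called higher and 0.511% lower, 2.39% in all. Without KO-03, 5 were called higher and 2 lower, and without KO-90 or WT-103, 1 was called higher. Before adjustment, 5997 of all probe sets had a limma p under 0.05.

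Of 13 genes of tryptophan uptake and its other fates, Slc16a10 was called higher, 0 were called lower and 12 did not pass, with a list median of 0.07. The gene at the median lay at or under the control level on all arrays. Another gene of the list was called on 1 of its 4 probe sets, which was not its brightest. Slc16a10, a transporter of aromatic amino acids, had 9.24, 9.39, 9.13 and 9.49 in the knockout livers, against 8.37, 8.49 and 8.58 in the wild-type livers. The groups did not overlap. Slc16a10 rose by 0.83 ± 0.12 (SE; limma adjusted p = 0.0148), and its probe set 1434592_at rose by 0.79 ± 0.12 (SE). Its other probe sets, with means near the control level, differed by 0.05 and 0.26. The call was lost without KO-90 (0.81, limma adjusted p = 0.0529), WT-27 (0.77, 0.0702) or WT-103 (0.84, 0.0836). Ddc, the decarboxylase that makes serotonin and tryptamine, differed by 0.96 ± 0.24 (SE; limma adjusted p = 0.106), and its dim probe set 1430591_at by -0.57.

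Among 14 measured aminotransferases and vitamin B6 enzymes not among the chosen genes, 2 were called higher, 0 were called lower and 12 did not pass, with a list median of 0.11. The genes on either side of that median lay at or under the control level on all arrays. Oat, the ornithine aminotransferase, had 13.42, 13.65, 13.46 and 13.47 in the knockout livers, against 12.33, 12.45 and 12.61 in the wild-type livers. Oat rose by 1.03 ± 0.12 (SE; limma adjusted p = 0.00430) and was called without any single array. Bcat2, the mitochondrial aminotransferase of branched-chain amino acids, had 7.40, 8.17, 7.84 and 8.00 in the knockout livers, against 6.87, 6.06 and 5.99 in the wild-type livers. Bcat2 rose by 1.55 ± 0.25 (SE; limma adjusted p = 0.0218). Its call was lost without KO-90 (1.44), KO-91 (1.55), KO-94 (1.50), WT-103 (1.42) or WT-104 (1.39), with limma adjusted p up to 0.118. In both genes every knockout liver lay above every wild-type liver, the opposite side to Kyat3 and Aadat.

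The list of the glutarate branch and lysine breakdown, which shares Aadat's substrate aminoadipate, had 0 called of 10. On brightest probe sets all 10 differences were negative, with a median of -0.31, where 47.5% were negative over all genes. The sign depends on the probe set or setting for Aldh7a1, Hadh, Gcdh, Acat1 and Dlst. None of the other probe sets of Aldh7a1 and Hadh was negative, and a probe set of Dlst, given below, was positive. Over the alternatives Aldh7a1 reached 0.20, Hadh 0.18, and Gcdh and Acat1 0.03. Dhtkd1, a subunit of the dehydrogenase that takes the product of Aadat, had 9.15, 8.83, 8.24 and 8.91 in the knockout livers, against 10.35, 9.68 and 9.60 in the wild-type livers. Its groups did not overlap, and it differed by -1.09 ± 0.25 (SE; limma adjusted p = 0.0768). Its limma adjusted p ran from 0.0254 to 0.222 over the 20 alternatives, and 5 of them called it. Dlst, the succinyltransferase subunit of related dehydrogenases, differed by -0.50 ± 0.12 (SE; limma adjusted p = 0.0848). Of the other probe sets of Dlst, 1431011_at differed by 0.15 in the opposite direction.

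Of 12 genes of NAD synthesis and salvage, 0 were called, with a median of -0.08. That median takes in a gene at or under the control level on all arrays. Qprt, the phosphoribosyltransferase that uses quinolinic acid, differed by -0.74 ± 0.17 (SE; limma adjusted p = 0.0877) on its brightest probe set. Its probe set 1418837_at, nearly as bright, fell by 0.99 (limma adjusted p = 0.0463), so the call of Qprt depends on the probe set. Nadk2, the mitochondrial NAD kinase, differed by -0.58 ± 0.22 (SE; limma adjusted p = 0.295).

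Of 9 genes of the aryl hydrocarbon receptor and its targets, 0 were called, with a median of 0.35. The target at the median lay at or under the control level on 3 knockout and 3 wild-type arrays. The receptor Ahr had 9.37, 9.47, 9.82 and 9.48 in the knockout livers, against 8.40, 8.89 and 8.96 in the wild-type livers. Its groups did not overlap, and it differed by 0.78 ± 0.17 (SE; limma adjusted p = 0.0658). Over the 20 alternatives the limma adjusted p of Ahr ran from 0.0225 to 0.181, and 5 called it. Cyp1b1, a cytochrome P450 under the receptor's control, differed by 1.15 ± 0.25 (SE; limma adjusted p = 0.0678), and 2 of 3 wild-type livers lay at or under the control level. Its other probe sets, with means under the control level, differed by 0.27 and 0.07. In this list 2 of the 9 differences were negative.

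**Figure D4:**
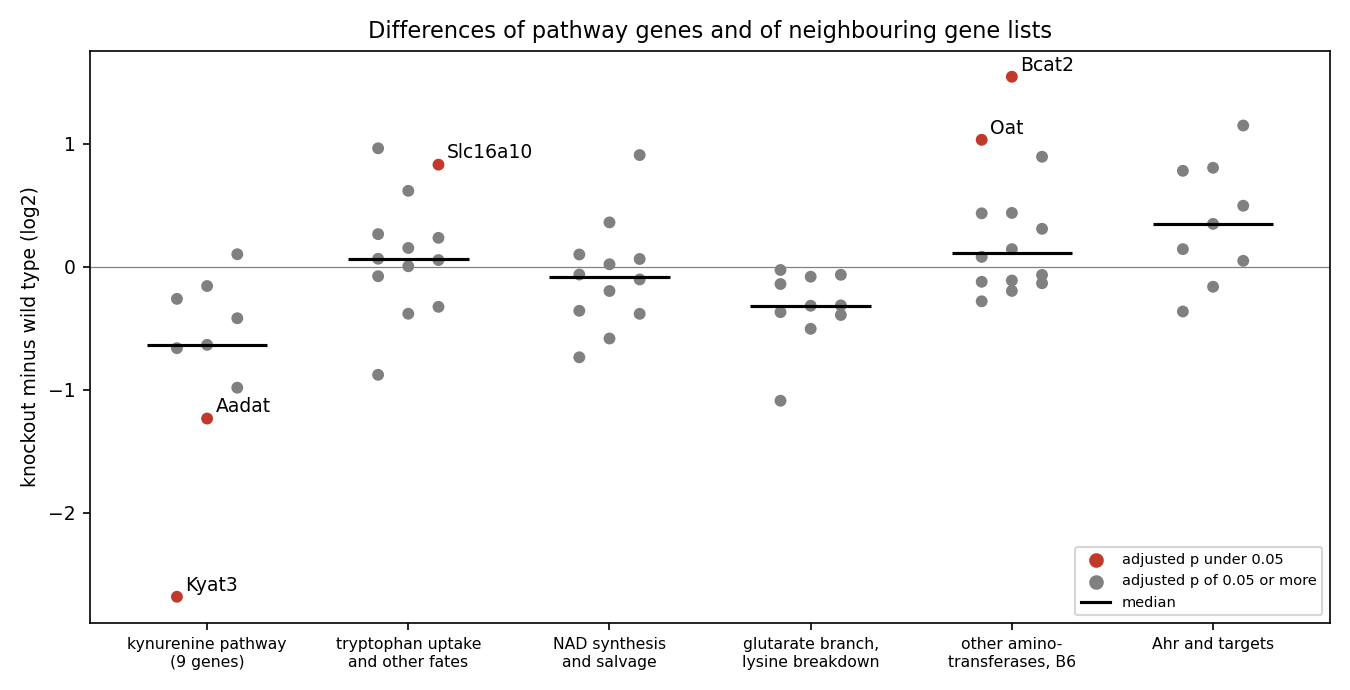
Knockout minus wild-type difference (y axis, log2) of the 9 pathway genes and of the 5 neighbouring lists, 1 point per gene by its brightest probe set, with called genes in red and list medians as lines. Kyat3 and Aadat are the called genes of the pathway, and Slc16a10, Oat and Bcat2 those of the lists.

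The genes whose profile over the 7 arrays lay closest to that of Kyat3 were Nxpe2, Ak4, Acacb, Amy1 and Gas1. Closeness was the root mean square distance between log2 values, each taken from the wild-type mean of its probe set, among 8400 genes with a mean of at least 6 and no provisional name, so it favours genes with a difference of like size. That mean was over all 7 arrays, and Nxpe2 passed only through its wild-type livers, with means of 5.44 in knockout and 7.74 in wild type. The distances were 0.51, 0.62, 0.70, 0.73 and 0.75, and the differences were -2.30, -2.29, -1.98, -1.82 and -1.71. Ak4 is a mitochondrial adenylate kinase, Acacb an acetyl-CoA carboxylase and Amy1 an amylase with near-identical copies. Gas1 is a membrane protein that binds hedgehog ligands. For Nxpe2 the value of KO-94, 4.52, lay under the control level of 5.03 on that array. The probe set 1448494_at of Gas1 differed by -1.37 (limma adjusted p = 0.0550). The probe sets 1445754_at of Acacb, 1444471_at of Nxpe2 and 1456322_at of Gas1 had means under the control level in both genotypes, so their differences carry no usable level. Of the 5 probe sets of Ak4, 3 were called.

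**Figure D5:**
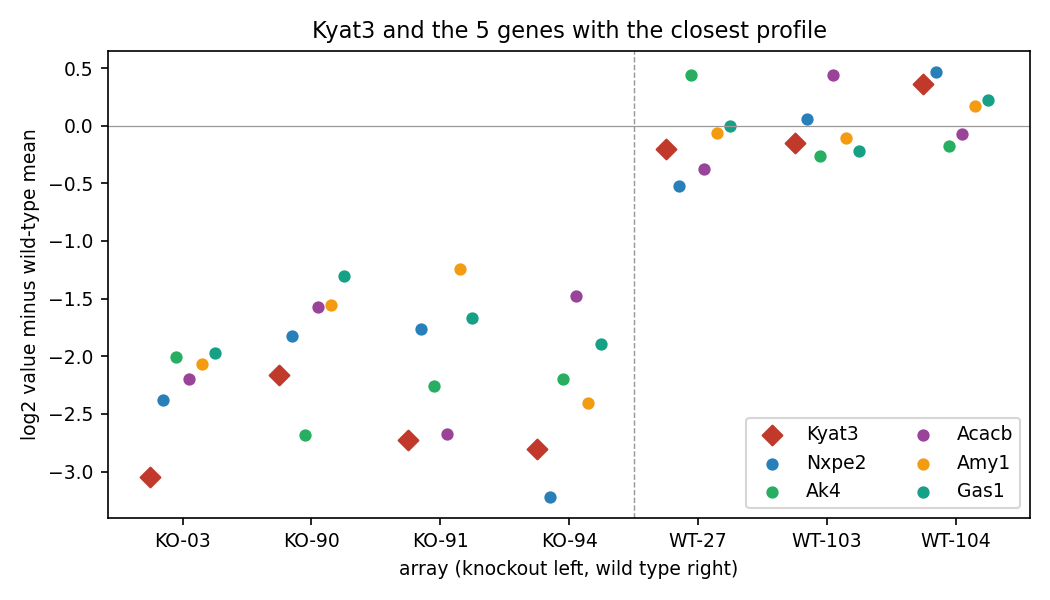
Log2 value minus the wild-type mean (y axis) on each array (x axis, knockout left, wild type right) for Kyat3 and the 5 genes with the closest profile. All 6 genes lie below the wild-type values on every knockout array, and Kyat3 is the lowest of them on KO-03 and KO-91.

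Liver markers were high on all arrays. The mean log2 level of 7 hepatocyte markers was 13.86 to 13.94 in knockout livers and 13.84 to 13.90 in wild-type livers, and albumin, Alb, averaged 14.63 ± 0.04 (SD, n = 4) and 14.60 ± 0.04 (SD, n = 3). Alb lay near the highest deposited value, 14.89, and the share of hepatocytes was not measured. Some markers of stellate cells, cholangiocytes and macrophages were called higher in the same knockout livers, where 1.87% of all 18193 genes were called higher. Of 7 stellate cell and fibroblast markers 4 were called higher, with list means of 8.30 to 8.90 in knockout livers and 7.53 to 7.80 in wild-type livers. Of 5 measured cholangiocyte markers 3 were called higher, with list means of 5.23 to 6.34 in knockout livers and 4.30 to 4.56 in wild-type livers, and Krt7 lay at or under the control level on all arrays. Of 8 macrophage markers 1 was called higher, with list means of 8.53 to 9.04 and 7.80 to 8.34. Endothelial list means were 7.55 to 7.81 and 7.68 to 7.82, and lymphocyte list means 4.77 to 4.98 and 4.70 to 4.89, with 0 called and 3 of 5 lymphocyte markers at or under the control level on all arrays. KO-94 had the highest macrophage and stellate means and KO-03 the lowest among the knockouts. The part of these cells in the results was not tested.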

How the data were processed

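The deposited table holds RMA log2 values (Partek), per the submitters' processing notes. RMA subtracts background, gives all arrays a common distribution and combines the probes of each probe set. Versions and build are not given in the sources used. The table has 45101 probe sets, of which 64 controls were left out. Platform annotation gave 1 symbol to 34945 probe sets and several to 932, and 9160 were not listed.

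Genotype came from the sample titles. The genotypes were set against each other in R 4.3.3 using limma 3.58.1 (lmFit, eBayes, two-sided, no covariates, 5 residual degrees of freedom), with Benjamini-Hochberg adjustment over 45037 probe sets. The adjustment runs over probe sets because all probe sets of a gene are described. The labels name no litter, sex, batch or scan date, so a part of these in a difference cannot be told apart from genotype. Each p-value sets a difference against the spread between animals within genotype, moderated over all probe sets (3.80 prior degrees of freedom). The number of animals, 7, limits the precision. Array medians lay between 4.65 and 4.71. No detection calls were given, so the brightest of 27 B. subtilis controls per array, 4.71 to 5.23, served as the control level. The fit was tested on simulated data.

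Pathway genes, lists and tests were chosen with earlier results of these data known. Named are all probe sets of the pathway genes, the called genes and the 2 with the smallest p of each list, the 5 genes closest to Kyat3, and Alb. Promoters came from RefSeq (GRCm38.p6). Alternatives were other priors, array weights, other scaling, filters, gene summaries and thresholds, and dropping each array. Dropping both KO-03 and WT-104 was added after seeing the data. Figures used Python 3.11.15 and matplotlib 3.10.9.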

Additional observations from a re-analysis of the deposited data

How the results depend on the processing

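Kyat3 was called lower in all 20 alternatives, with differences from -2.86 to -2.38. Aadat kept its direction in all of them, from -1.34 to -1.05, and lost its call in 6, at an adjusted p under 0.01 and without 5 single arrays, which left 1 called pathway gene and 1 called probe set. Without single arrays, the count of probe sets called higher ranged from 172 (without WT-103) to 1112 (without KO-03), against 582 with all arrays, and lower from 38 to 268 (144), called pathway genes and their probe sets from 1 to 2, and neighbouring genes called higher from 1 to 5 (3) and lower from 0 to 2 (0). With array weights, 1177 probe sets were higher and 407 lower, and 8 and 3 neighbouring genes. Without KO-03 and WT-104 together, 1231 probe sets were higher and 709 lower, and 7 and 1 neighbouring genes. With 1 probe set per gene, 470 genes were higher and 173 lower, and 5 and 1 neighbouring genes. With a gene's probe sets averaged, 400 genes were higher and 146 lower, and 1 neighbouring gene was lower. With a mean of at least 6 in a genotype, 242 probe sets were lower, and 1 neighbouring gene. At an adjusted p under 0.01, 163 were higher and 21 lower, and 1 neighbouring gene was higher. With a fold of at least 2 as well, 363 were higher and 68 lower. The filter and the 1 probe set per gene test fewer features, and the thresholds are stricter by construction; for the others the cause was not tested. No paired analysis was possible because the animal numbers do not recur between genotypes. Other scaling moved the median difference of all probe sets to -0.01 or 0.00. Probe sets at the control level, 3 of the 18, carry no usable level. In 33 probe sets of the genes named here, 0 had a knockout liver standing apart by Dixon's test.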
